A study of Homo sapiens with 6 samples.

Results

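Genes of mitosis and of the spindle checkpoint were followed in the human embryonic stem cell line H1, with and without a point change in DICER1, the enzyme that cuts microRNAs out of their hairpin precursors. The genes were taken from a list of 35 symbols, covering the cyclins and kinases that drive mitosis, the checkpoint, the kinetochore, the spindle and cytokinesis. The deposited count table held 34 of them among its 16199 genes, and the remaining 1, NUSAP1, is not analysed here. The genes were listed by symbol and function, with no threshold on a measured value, although earlier results of these data were known when the list was made. RNA came from 3 genotypes with 2 libraries each: cells homozygous for DICER1 S1344L, cells hemizygous for S1344L, and unedited wild-type cells. All 6 libraries are from the H1 line, and the edits were made with CRISPR-Cas9, per the series' design text, to ask what this cancer hotspot change does in stem cells. The labels do not say how many clones were used or whether the 2 libraries of a genotype are separate cultures, so each p-value is read against the spread between libraries, which may be technical.

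As background, entry into mitosis depends on CDK1 bound to cyclin A or cyclin B, held back by the kinase WEE1 and released by phosphatases of the CDC25 family. The spindle checkpoint (BUB1, BUB1B, BUB3, MAD2L1, TTK) keeps CDC20 from activating the anaphase-promoting complex (APC/C) until every kinetochore is attached, after which the central spindle and the cortex complete cytokinesis. Transcripts of these genes accumulate in the later part of the cell cycle, and their regulators include the DREAM and MuvB complexes, MYBL2, FOXM1 and NF-Y. Embryonic stem cells, which cycle with short gap phases, express these genes at high levels.

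Promoter sequences were available for 27 of the 34 genes, as RefSeq windows on GRCh38.p14 that run from 250 bases before to 50 bases after the annotated start. No window was matched for WEE1, AURKA, BUB3, TTK, UBE2C, BIRC5 or TPX2. The windows were searched on both strands for the cell cycle genes homology region, CHR (TTTGAA, or TTCGAA as a variant), which is bound by the LIN54 subunit of DREAM and MuvB, and for the CCAAT box (CCAAT), which is bound by NF-Y. The CHR letters were found in 20 of 27 windows (74.1%), against 11.1% of the 11412 windows matched to a gene of the table and 16.6% of all 27305 windows. The CCAAT letters were found in 20 of 27 (74.1%), against 36.3% and 35.7%. Both occurred in 16 windows (59.3%), against 4.78% and 6.58%, and at least 2 CCAAT matches in 11 windows (40.7%), against 13.2% and 11.3%. Matches of the 2 motifs overlapped in 1 window, that of MKI67. A match is a description of the letters and not a shown binding site.

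The windows of 5 genes are printed 5′ to 3′ on the strand of the gene, with the matched letters in capitals. A CHR match on the printed strand reads TTTGAA in the windows shown, and a CCAAT match reads CCAAT or, where it lies on the other strand, ATTGG. CCNB2 (chr15:59104896-59105195, plus strand) is shown as a window with 4 CCAAT matches upstream of a CHR match. CENPF (chr1:214602945-214603244, plus strand) and KIF23 (chr15:69414099-69414398, plus strand) had every edited library above both wild-type libraries. ECT2 (chr3:172750476-172750775, plus strand) had the lowest adjusted p between replicate numbers. AURKB (chr17:8210176-8210475, minus strand) was the 1 listed gene called higher in replicate 2, with a CCAAT match and no CHR match in its window. In GENCODE 29 the AURKB gene begins at 8210600, upstream of this window. Only 1 window per gene was searched, so matches near other starts would be missed.
CCNB2: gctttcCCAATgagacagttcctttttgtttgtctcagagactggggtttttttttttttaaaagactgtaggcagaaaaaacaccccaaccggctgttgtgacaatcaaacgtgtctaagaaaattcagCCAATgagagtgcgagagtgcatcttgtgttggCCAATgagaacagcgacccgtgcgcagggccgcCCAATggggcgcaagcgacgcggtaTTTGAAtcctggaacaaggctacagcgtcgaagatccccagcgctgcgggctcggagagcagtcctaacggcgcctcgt
CENPF: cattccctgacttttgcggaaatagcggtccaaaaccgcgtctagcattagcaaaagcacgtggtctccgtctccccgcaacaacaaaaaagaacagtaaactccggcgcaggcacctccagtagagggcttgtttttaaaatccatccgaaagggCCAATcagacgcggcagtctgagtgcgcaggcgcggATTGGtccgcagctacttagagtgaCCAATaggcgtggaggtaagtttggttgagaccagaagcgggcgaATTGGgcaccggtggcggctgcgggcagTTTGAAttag
KIF23: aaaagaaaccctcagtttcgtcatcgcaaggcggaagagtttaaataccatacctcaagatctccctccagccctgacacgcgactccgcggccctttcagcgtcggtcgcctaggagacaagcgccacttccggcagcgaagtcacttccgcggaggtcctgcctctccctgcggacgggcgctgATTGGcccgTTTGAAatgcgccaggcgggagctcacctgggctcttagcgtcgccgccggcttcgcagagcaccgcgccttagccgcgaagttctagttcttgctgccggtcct
ECT2: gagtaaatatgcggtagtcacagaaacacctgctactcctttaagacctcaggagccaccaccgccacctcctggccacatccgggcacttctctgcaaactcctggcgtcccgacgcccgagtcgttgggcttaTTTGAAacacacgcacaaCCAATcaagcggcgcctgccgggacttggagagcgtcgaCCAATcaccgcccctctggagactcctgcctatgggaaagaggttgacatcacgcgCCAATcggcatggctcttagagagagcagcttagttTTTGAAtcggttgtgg
AURKB: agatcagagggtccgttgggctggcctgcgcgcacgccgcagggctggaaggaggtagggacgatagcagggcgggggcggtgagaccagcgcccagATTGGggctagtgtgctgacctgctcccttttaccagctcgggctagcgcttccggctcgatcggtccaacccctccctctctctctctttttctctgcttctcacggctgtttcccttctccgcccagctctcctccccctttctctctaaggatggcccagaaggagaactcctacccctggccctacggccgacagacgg
In CCNB2 the CHR match began 29 bases before the start and the nearest CCAAT match 54 bases before it. In CENPF the CHR match lay downstream of the start, at position 41, and 3 of the 4 CCAAT matches lay upstream, at 94, 58 and 33 bases before the start. KIF23 had its CCAAT and CHR matches side by side, at 64 and 55 bases before the start. ECT2 had CHR matches 115 bases before the start and at position 35.

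**Figure D1:**
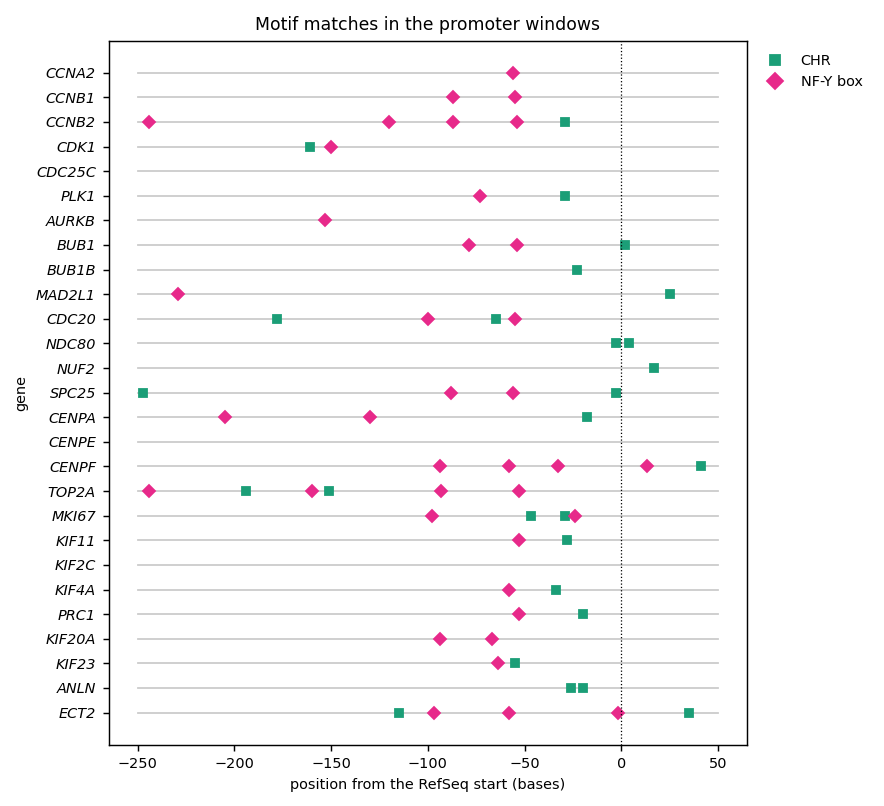
Positions of CHR matches (squares) and CCAAT matches, labelled NF-Y box (diamonds), in the 27 RefSeq promoter windows, in bases from the annotated start (dotted line), with 1 line per gene. CCAAT matches were found in 20 windows and CHR matches in 20, and CDC25C, CENPE and KIF2C had neither.

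The libraries held 38164848 to 52924532 counts, and the 34 genes took 0.542% to 0.580% of them. Levels are given in CPM, which bring each library's counts to one size, with edgeR's TMM factors applied. Markers of pluripotent stem cells were all measured, 10 of 10, with summed levels of 9870 to 10230 CPM in homozygous, 10192 to 11142 CPM in hemizygous and 9510 to 9835 CPM in wild-type libraries. DICER1 itself had 129 and 118 CPM in homozygous, 118 and 96.4 CPM in hemizygous and 169 and 126 CPM in wild-type libraries 1 and 2. A point change need not alter the level, so this is no check of the homozygous label. Both hemizygous libraries were below both wild-type libraries, and the reason was not tested. The counts are from bulk RNA, in which fewer cells in mitosis and less transcript per cell cannot be told apart.

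The mitotic genes were abundant transcripts, with 32 of 34 having a median level between 30.1 CPM (CDC25C) and 656 CPM (TOP2A). Per kilobase of exon, the highest median levels were those of CCNB1 at 114 CPM per kb, UBE2C at 113, TOP2A at 102 and CDC20 at 85.3. With the longest transcript as the length, UBE2C stood first at 159.7 CPM per kb and CCNB1 second at 135, so the order of these neighbours depends on the length used. The lowest of the 32 was CDC25C at 9.03 CPM per kb of exon.

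The 2 exceptions were SPC25, a subunit of the NDC80 kinetochore complex, and PRC1, the microtubule bundler of the central spindle. SPC25 (chromosome 2, 168834132 to 168913371, minus strand, GRCh38) had 0.542 to 0.987 CPM and PRC1 (chromosome 15, 90966038 to 90995629, minus strand) 1.31 to 1.67 CPM over the libraries. SPC25 stood at percentile 9.43 and PRC1 at percentile 5.89 of per-kilobase levels over 15926 genes, against percentile 69.6 for CDC25C, the next lowest of the list. All genes of the table passed edgeR's filter on low counts, so these percentiles are among expressed genes. Of the exon bases of PRC1, 57.6% are shared on the same strand with ENSG00000284946, which had 9.34 to 13.4 CPM, whereas SPC25 shares none. The part of the counting in these low values was not tested. The partners of SPC25 in its complex had medians of 62.7 CPM for NDC80 and 53.2 CPM for NUF2.

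**Figure D2:**
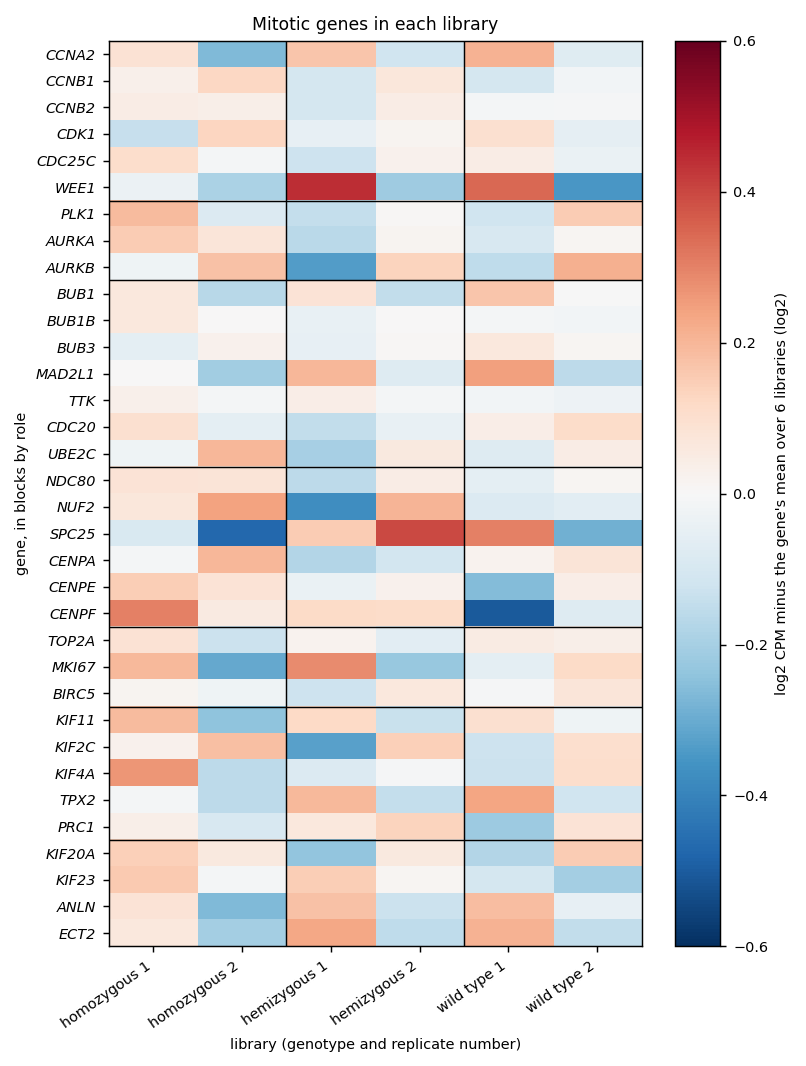
Level of each of the 34 genes in each library, as log2 CPM minus the gene's mean over the 6 libraries (colour, log2 scale), with genes in blocks by role and libraries in columns by genotype and replicate number. CENPF is lowest in wild type 1, and WEE1, MAD2L1, TPX2 and ECT2 are higher in replicate 1 libraries. Most genes are above their own mean in homozygous 1, a count for which the share of all genes is not given.

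No mitotic gene passed the test between genotypes. In detail, no gene of the list passed edgeR's quasi-likelihood test with Benjamini-Hochberg adjustment over all genes (adjusted p under 0.05) in any of the 3 comparisons. Homozygous against wild-type libraries gave 0 of 34 called, against 0% of all 16199 genes, and hemizygous against wild-type libraries likewise 0 of 34, against 0%. Homozygous against hemizygous libraries also gave 0 of 34, against 0%. At an unadjusted edgeR p under 0.05, 1 of the 34 (CENPF) was found in homozygous against wild-type libraries, where 2.69% of all genes were. No listed gene was found at that limit in hemizygous against wild-type libraries, where 0.870% of all genes were, or in homozygous against hemizygous libraries, where 0.765% were. DESeq2 called 0 of 34 in each comparison, against 0.0617% of all genes for homozygous over wild type, 0.0432% for hemizygous over wild type and 0.0617% for homozygous over hemizygous. Limma-voom called 0 of 34, against 0% in each.

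The fitted differences of the list were centred near 0. The median log2 fold change of the 34 genes was 0.04 for homozygous over wild type, with 19 of 34 positive, and -0.04 for hemizygous over wild type, with 12 of 34 positive. It was 0.04 for homozygous over hemizygous, with 21 positive, while the median over all genes was 0.00 in each comparison. The fitted change was within 1.2-fold for 32 of 34 genes (94.1%) for homozygous over wild type, against 74.5% of all genes. It was within that limit for 33 of 34 (97.1%) for hemizygous over wild type, against 85.9% of all genes, and for 33 of 34 for homozygous over hemizygous, against 77.4%. The median standard error of the list was 0.16 on the log2 scale, against 0.22 over all genes. The median unadjusted 95% interval of the list reached 0.38 to either side for homozygous and for hemizygous over wild type.

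**Figure D3:**
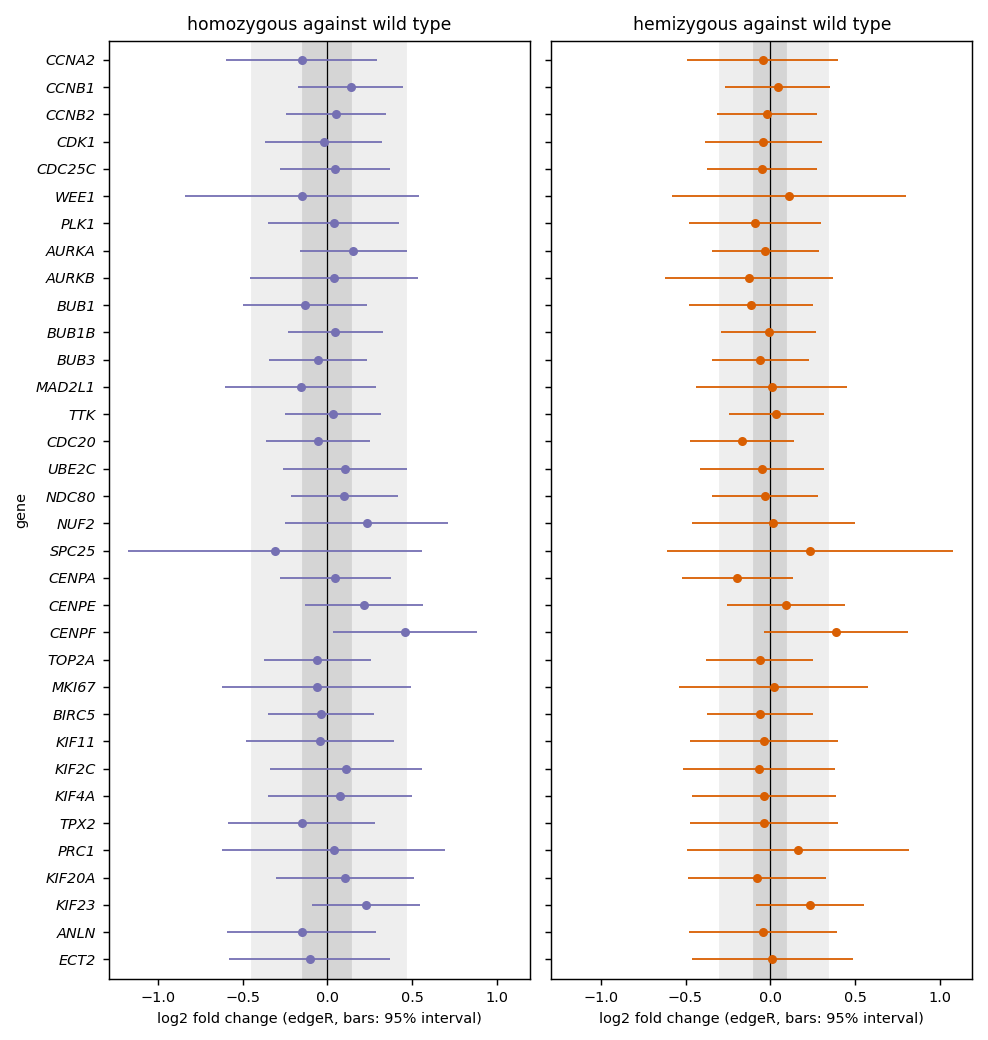
Log2 fold change of each gene from edgeR for homozygous against wild type (left) and hemizygous against wild type (right), points with 95% intervals, n = 2 libraries each; dark and light grey bands hold the 25th to 75th and the 5th to 95th percentile of all 16199 genes. Nearly all intervals include 0, with CENPF in homozygous cells (0.03 to 0.88) the one that does not. The intervals come from the fit without a replicate term.

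Among the cyclins and the controls of CDK1, 0 of 6 genes passed in any genotype comparison. CCNB1, the main mitotic cyclin, had 297 and 316 CPM in homozygous, 270.3 and 304 CPM in hemizygous and 270.1 and 287 CPM in wild-type libraries 1 and 2. Both homozygous libraries were above both wild-type libraries, and the log2 fold changes were 0.14 (SE 0.13) for homozygous and 0.04 (SE 0.13) for hemizygous over wild type. CDK1, its kinase partner, had 201 and 242 CPM in homozygous, 214 and 224 CPM in hemizygous and 237 and 213 CPM in wild-type libraries, so the groups overlapped, with log2 fold changes of -0.02 and -0.04 (SE 0.14 each). WEE1, which phosphorylates and restrains CDK1, had 151 and 136 CPM in homozygous, 209.8 and 133 CPM in hemizygous and 196 and 121 CPM in wild-type libraries. The groups overlapped, with log2 fold changes of -0.15 for homozygous and 0.11 for hemizygous over wild type (SE 0.29 each). Within replicate 1 the homozygous library was lower than wild type by a log2 difference of -0.38, and within replicate 2 the difference was 0.16.
CCNB2, a second B-type cyclin, lay between 97.1 and 108 CPM in all libraries, and CDC25C, an activator of CDK1, between 27.5 and 32.3 CPM. CCNA2, cyclin A, had 169 and 133 CPM in homozygous, 179 and 147 CPM in hemizygous and 184 and 151 CPM in wild-type libraries, which overlapped.

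The mitotic kinases gave overlapping groups for 2 of 3 genes. PLK1, the polo-like kinase of mitotic entry and spindle assembly, had 161 and 133 CPM in homozygous, 128 and 142 CPM in hemizygous and 129.9 and 157 CPM in wild-type libraries. The log2 fold change was 0.04 (SE 0.16) for homozygous and -0.09 (SE 0.16) for hemizygous over wild type. AURKB, the kinase of the chromosomal passenger complex, averaged 119.6 ± 11.7 CPM in homozygous, 107 ± 24.3 CPM in hemizygous libraries, and 117 ± 20.7 CPM in wild-type libraries (SD, n = 2 each). AURKA, the centrosome kinase, had 126 and 119 CPM in homozygous libraries, 102 and 115 CPM in hemizygous libraries and 106 and 115 CPM in wild-type libraries, with both homozygous libraries the highest.

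Of the checkpoint and APC/C genes, TTK, the kinase that starts checkpoint signalling, was the steadiest gene of the whole list. It averaged 115 ± 2.16 CPM in homozygous, 116 ± 3.02 CPM in hemizygous libraries, and 113 ± 0.679 CPM in wild-type libraries (SD, n = 2 each), a ratio of 1.05 between the highest and the lowest library. BUB1B and BUB3, components of the mitotic checkpoint complex, had ratios of 1.08 and 1.09. BUB1, the kinetochore kinase, had 149 and 128 CPM in homozygous, 151 and 129 CPM in hemizygous and 161 and 143 CPM in wild-type libraries, with log2 fold changes of -0.13 and -0.11 (SE 0.15 each) over wild type. MAD2L1, which binds and restrains CDC20, had 132 and 114 CPM in homozygous, 151 and 125 CPM in hemizygous and 156 and 118 CPM in wild-type libraries, so its groups overlapped. CDC20, the APC/C activator, had 186 and 167 CPM in homozygous, 157 and 169 CPM in hemizygous and 179 and 187 CPM in wild-type libraries. Both hemizygous libraries were below both wild-type libraries, with a log2 fold change of -0.17 (SE 0.13, edgeR adjusted p = 1). UBE2C, the E2 enzyme of the APC/C, lay between 126 and 166 CPM in all libraries.

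The kinetochore and centromere genes held the largest difference from wild type of the list, in CENPF (chromosome 1, 214603195 to 214664588, plus strand, GRCh38), a large kinetochore and nuclear matrix protein of late cell cycle phases. CENPF had 575 and 484 CPM in homozygous libraries 1 and 2, 505 and 504 CPM in hemizygous libraries and 329 and 442 CPM in wild-type libraries. All 4 edited libraries were above both wild-type libraries, and wild type 1 was the lowest. The log2 fold change was 0.46 (SE 0.18, 95% interval 0.03 to 0.88, unadjusted p = 0.039, adjusted p = 1, edgeR) for homozygous over wild type. For hemizygous over wild type it was 0.39 (SE 0.18, 95% interval -0.04 to 0.81, unadjusted p = 0.068, adjusted p = 1, edgeR). Both comparisons use the same wild-type libraries. Without wild type 1 the values were 0.27 for homozygous and 0.20 for hemizygous, and without wild type 2 they were 0.70 and 0.63. With all 6 libraries and a replicate block the homozygous value was 0.46, with an adjusted p of 0.374 in edgeR and 0.108 in DESeq2. The hemizygous value with the block was 0.39 (edgeR adjusted p = 0.999). Within replicate 1 the log2 difference from wild type was 0.81 for homozygous and 0.62 for hemizygous, and within replicate 2 it was 0.13 and 0.19, so the sign held in both replicate numbers and the larger difference lay in replicate 1.
The other kinetochore genes differed less from wild type. CENPE, the kinetochore motor that moves chromosomes to the spindle equator, had 133 and 128 CPM in homozygous, 117 and 123 CPM in hemizygous and 101 and 124 CPM in wild-type libraries. NUF2, a subunit of the NDC80 complex, had 55.6 and 62.7 CPM in homozygous, 41.0 and 61.1 CPM in hemizygous and 50.2 and 50.7 CPM in wild-type libraries, with a log2 fold change of 0.23 (SE 0.20, edgeR adjusted p = 1) for homozygous over wild type. CENPA, the centromeric histone, had 30.6 and 35.4 CPM in homozygous, 27.3 and 28.5 CPM in hemizygous and 31.3 and 32.5 CPM in wild-type libraries. The hemizygous libraries were the lowest, with log2 fold changes of 0.24 (SE 0.14, edgeR adjusted p = 0.999) for homozygous over hemizygous and -0.19 (SE 0.14, edgeR adjusted p = 1) for hemizygous over wild type. SPC25 had 0.705 and 0.542 CPM in homozygous, 0.834 and 0.987 CPM in hemizygous and 0.925 and 0.614 CPM in wild-type libraries, from as few as 22 counts, and its log2 fold change of -0.55 for homozygous over hemizygous had an SE of 0.36.

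The chromosome and passenger genes include the classical proliferation markers. TOP2A, the topoisomerase that untangles sister chromatids, had 683 and 588.5 CPM in homozygous, 653 and 616 CPM in hemizygous and 666 and 659 CPM in wild-type libraries, with log2 fold changes of -0.06 (SE 0.13) in both edited lines. MKI67, which encodes the Ki-67 protein that coats mitotic chromosomes, had 359.6 and 254 CPM in homozygous, 382 and 268 CPM in hemizygous and 301 and 339.6 CPM in wild-type libraries. Replicate 1 was the higher library in both edited lines and the lower in wild type, and the means were 307 ± 75.02 CPM in homozygous, 325 ± 81.1 CPM in hemizygous libraries, and 320.3 ± 27.3 CPM in wild-type libraries (SD, n = 2 each), within 1 SD of each other. BIRC5, survivin, a subunit of the passenger complex, lay between 105 and 121 CPM in all libraries.

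Of the spindle motors and microtubule proteins, all 5 measured genes had edited libraries that overlapped those of wild type. KIF11, the motor that pushes spindle poles apart, had 150.5 and 112 CPM in homozygous, 143 and 120.1 CPM in hemizygous and 141 and 129.6 CPM in wild-type libraries. TPX2, a spindle assembly factor and activator of AURKA, had 275 and 248.7 CPM in homozygous, 317 and 251 CPM in hemizygous and 327 and 255 CPM in wild-type libraries. KIF2C, a microtubule depolymerase, had 155 and 173 CPM in homozygous, 122 and 168 CPM in hemizygous and 140.1 and 164 CPM in wild-type libraries. KIF4A, a chromosome-bound motor, had 83.7 and 62.5 CPM in homozygous, 65.8 and 69.2 CPM in hemizygous and 63.7 and 74.9 CPM in wild-type libraries. It has a near-identical copy, KIF4B, which had 25 to 45 counts in the libraries, so reads of the 2 may have been exchanged. Opposite-strand neighbours cover 12.5% of the exon bases of PLK1, 9.1% of those of CCNA2 and 8.8% of those of CDC25C, and BUB1B shares 10.2% with the readthrough gene BUB1B-PAK6, so part of their counts may come from these genes.

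Among the cytokinesis genes KIF23 (chromosome 15, 69414246 to 69448427, plus strand, GRCh38), the motor of the centralspindlin complex, was likewise higher in every edited library than in wild type, by a smaller factor than CENPF. KIF23 had 156 and 139 CPM in homozygous, 156 and 142 CPM in hemizygous and 130.2 and 122 CPM in wild-type libraries. All 4 edited libraries were above both wild-type libraries, with means of 148 ± 12.1 CPM in homozygous, 149 ± 9.94 CPM in hemizygous libraries, and 126 ± 5.84 CPM in wild-type libraries (SD, n = 2 each). The log2 fold change was 0.24 (SE 0.13, unadjusted p = 0.122, adjusted p = 1, edgeR) for hemizygous over wild type. With a replicate block it was also 0.24 (edgeR adjusted p = 0.999). Within replicate 1 the log2 difference from wild type was 0.26 in both edited lines, and within replicate 2 it was 0.19 for homozygous and 0.21 for hemizygous. KIF20A, a motor of the central spindle, had 150.1 and 142 CPM in homozygous, 115 and 142 CPM in hemizygous and 120.2 and 151 CPM in wild-type libraries. ANLN, which links actin and septins at the cleavage furrow, and ECT2, which activates RhoA there, overlapped between genotypes, with 145 to 198 CPM and 152 to 206 CPM over all libraries.

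**Figure D4:**
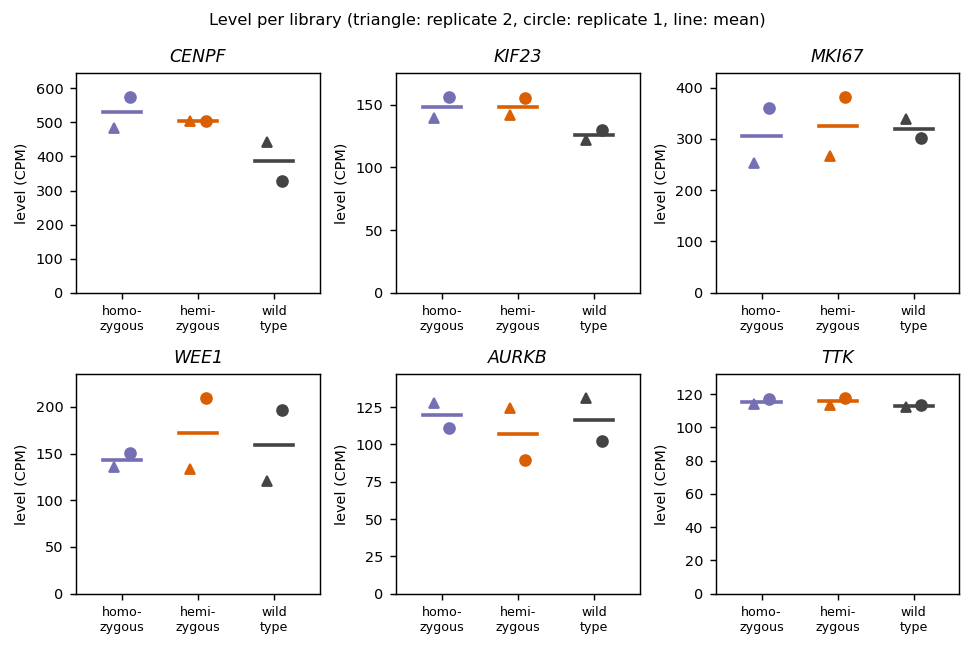
Levels in CPM (linear axis from 0) of 6 genes in each library, with triangles for replicate 2, circles for replicate 1 and lines for the genotype mean of 2 libraries. CENPF, KIF23 and, by a small margin, TTK are above both wild-type libraries in all 4 edited libraries. MKI67 changes its replicate order between edited and wild-type cells. WEE1 is lower and AURKB higher in replicate 2 of every genotype. TTK lies between 112 and 118 CPM in all libraries.

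Genes whose libraries did not overlap were counted against the share of all genes. Both homozygous libraries were above both wild-type libraries for 10 of 34 genes (29.4%), against 14.2% of all genes, namely CCNB1, CCNB2, AURKA, BUB1B, TTK, NDC80, NUF2, CENPE, CENPF and KIF23. For 0 of 34 were both below, against 13.6% of all genes. Both hemizygous libraries were above both wild-type libraries for 3 genes, TTK, CENPF and KIF23, against 8.13% of all genes. They were below for 4 genes, BUB3, CDC20, CENPA and TOP2A, against 9.21%. TTK, CENPF and KIF23 were thus above wild type in all edited libraries, and the share of all genes with that pattern is not given here. Both homozygous libraries were above both hemizygous libraries for 5 genes, AURKA, BUB1B, NDC80, CENPA and CENPE, against 11.0%. They were below for 2 genes, SPC25 and PRC1, against 10.4%. In the homozygous 1 library 26 of 34 genes were above their own mean over the libraries, against 15 in homozygous 2, 15 and 20 in hemizygous 1 and 2, and 15 and 16 in wild type 1 and 2. Within replicate 1, 23 of 34 genes were higher in homozygous than in wild type, with a median log2 difference of 0.06, and within replicate 2, 17 of 34, with a median of -0.01. The share of all genes is not given for the counts above the own mean or within a single replicate number. Whether these counts are particular to the list was therefore not tested.

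The counts of libraries that did not overlap set both replicate numbers side by side, so a shift between the numbers widens the overlap. Compared instead within each number, a count made after the values were seen, homozygous was higher than wild type in both for 13 of 34 genes, against 27.0% of all genes. It was lower in both for 7 genes, CCNA2, BUB1, MAD2L1, SPC25, TPX2, ANLN and ECT2, against 28.7% of all genes. CCNA2, for example, had log2 differences of -0.12 within replicate 1 and -0.19 within replicate 2. Hemizygous was higher than wild type in both numbers for 6 genes, against 26.7% of all genes, and lower in both for 12, against 28.5%. CCNA2, BUB1, TPX2 and ANLN were among those 12 as well. Homozygous was higher than hemizygous in both for 10 genes, against 27.3%, and lower in both for 9, against 30.2%.

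Markers of some other cell types were also higher in the edited libraries, where CENPF and KIF23 were higher, although 0 of them passed edgeR's adjusted threshold between genotypes. The pluripotent stem cell sum was higher too, at 10230 and 9870 CPM in homozygous and 11142 and 10192 CPM in hemizygous, against 9835 and 9510 CPM in wild-type libraries. Of its 10 genes, 7 were positive for homozygous and 9 for hemizygous over wild type. The neural ectoderm list had 2 of 5 genes measured, ZIC1 and FABP7, whose summed level was 33.8 and 36.2 CPM in homozygous, 45.2 and 64.7 CPM in hemizygous and 20.9 and 19.3 CPM in wild-type libraries. PAX6, SOX1 and LHX2 are not analysed here. The mesoderm and primitive streak list had 4 of 6 genes measured, with sums of 381 and 365 CPM in homozygous, 338 and 397 CPM in hemizygous and 262 and 278 CPM in wild-type libraries. Nearly all of these sums was KDR, with 376 and 361 CPM in homozygous, 333 and 393 CPM in hemizygous and 257 and 276 CPM in wild-type libraries, while MIXL1, MESP1 and PDGFRA had 0.289 to 3.07 CPM. MIXL1 overlapped between edited and wild-type libraries, as did MESP1, with 0.495 CPM in hemizygous 1 against 0.640 CPM in wild type 2. TBXT and EOMES are not analysed here. The fibroblast list, 3 of 6 measured, summed to 622 and 667 CPM in homozygous, 808 and 698 CPM in hemizygous and 845 and 775 CPM in wild-type libraries. For endoderm 1 of 5 genes was measured (CXCR4, 0.895 to 2.16 CPM), and for trophoblast and amnion 1 of 6 (KRT7, 6.34 to 10.5 CPM). The part of these markers in the levels of CENPF and KIF23 was not tested.

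More of the listed genes were called by replicate number than by genotype, 7 against 0, but the tests were unlike. The genotype tests had fewer libraries on each side and no replicate term, with a median SE of 0.16 for the list. The replicate test had genotype in its model and a median SE of 0.08. The 2 counts therefore do not compare the sizes of the differences. With a replicate block the genotype comparisons still called 0 listed genes. With genotype in the model, WEE1, ECT2, CCNA2, MAD2L1, ANLN and TPX2 fell and AURKB rose in replicate 2 against replicate 1 libraries (edgeR, adjusted p under 0.05). The 6 lower genes were 17.6% of the list, against 12.0% of all genes called lower, and the 1 higher gene compares with 8.50% of all genes called higher. In all, 7 of 34 listed genes (20.6%) were called, against 20.5% of all genes, so the share of the list was that of the table. The labels do not say what the replicate number marks.
WEE1 had 136, 133 and 121 CPM in the homozygous, hemizygous and wild-type libraries of replicate 2, against 151, 209.8 and 196 CPM in those of replicate 1. Replicate 2 was lower in every genotype, with the smallest gap in homozygous cells and a log2 fold change of -0.50 (SE 0.12, edgeR adjusted p = 0.0272). ECT2 had 152, 158 and 158 CPM in replicate 2, against 183, 206 and 202 CPM in replicate 1, a log2 fold change of -0.34 (SE 0.07, edgeR adjusted p = 0.0229). MAD2L1 had 114, 125 and 118 CPM in replicate 2, against 132, 151 and 156 CPM in replicate 1, a log2 fold change of -0.30 (SE 0.08, edgeR adjusted p = 0.0357). AURKB had 128, 124 and 131 CPM in replicate 2, against 111, 89.9 and 102 CPM in replicate 1, a log2 fold change of 0.34 (SE 0.08, edgeR adjusted p = 0.0289). In each of these genes the replicate 2 libraries lay closer together than the replicate 1 libraries.
CCNB1, CDK1, PLK1, BUB1, TOP2A, MKI67 and KIF2C did not pass. Of these KIF2C was nearest, at 0.28 (SE 0.09, edgeR adjusted p = 0.0553), followed by BUB1 at -0.21 (SE 0.07, edgeR adjusted p = 0.0729). MKI67 had a log2 fold change of -0.28 (SE 0.14, edgeR adjusted p = 0.179), with replicate 2 lower in both edited lines and higher in wild type. Without the wild-type libraries or without the hemizygous libraries, 0 of 34 genes passed, against 0 and 2 of all genes, in fits that keep 1 residual degree of freedom. The log2 fold change of WEE1 was then -0.39 and -0.41. Without the homozygous libraries, at the same 1 residual degree of freedom, 9 of 34 listed genes and 6252 of all genes passed.

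Replicate direction went with base composition and transcript length. Replicate 2 was lower in all 3 genotypes for 11 of 34 genes (32.4%), against 29.9% of all genes, namely CCNA2, WEE1, BUB1, MAD2L1, TTK, TOP2A, KIF11, TPX2, KIF23, ANLN and ECT2. It was higher in all 3 for 6 genes (17.6%), against 28.3% of all genes, namely CCNB1, AURKB, UBE2C, NUF2, CENPA and KIF2C. The longest transcripts of the 11 lower genes had a median GC content of 40.0% and a median length of 4406 bases, and those of the 6 higher genes 48.9% and 1710.5 bases. Over all genes of the table the medians were 43.6% GC for those lower and 54.0% GC for those higher. Across genes, which are not independent replicates and here share the same libraries, Spearman's rho between the replicate difference and transcript GC was 0.41 over the 34 listed genes and 0.39 over 15926 genes, and with transcript length it was -0.50 and -0.34. The genotype differences had rho with GC of 0.12 for homozygous over wild type, -0.28 for hemizygous over wild type and 0.33 for homozygous over hemizygous over the 15926 genes. The part of base composition in any single gene was not tested.

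**Figure D5:**
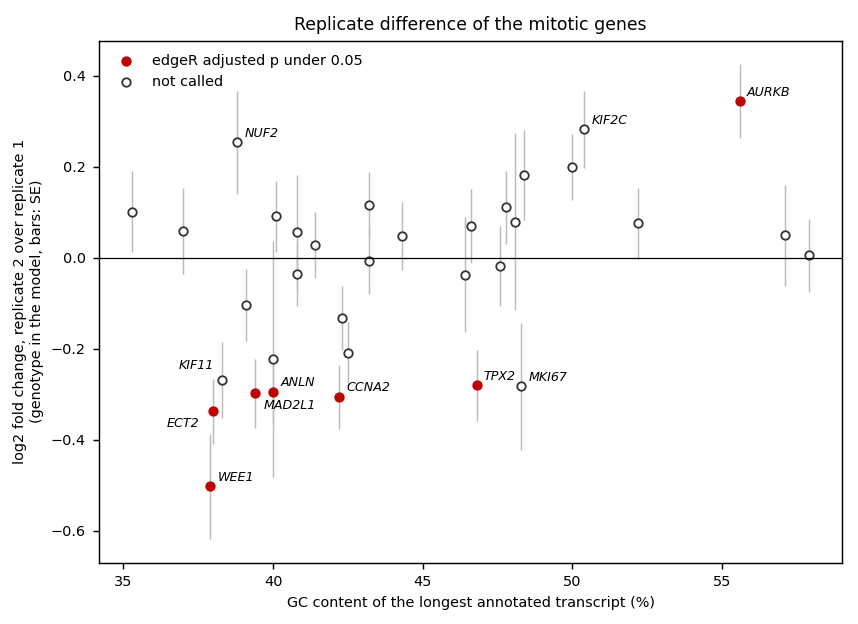
Log2 fold change of replicate 2 over replicate 1 with genotype in the model (points, bars are SE, 6 libraries) against the GC content of each gene's longest annotated transcript in percent, for the 34 genes. Filled points are the 7 genes with edgeR adjusted p under 0.05, of which the 6 lower ones lie at lower GC than AURKB (55.6%). CDC20 (57.9%) and PLK1 (57.1%) lie at higher GC than AURKB and were not called.

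Other genes of the same pathways were read from 6 lists with 121 of 130 genes measured. None of them passed edgeR's adjusted threshold in any genotype comparison. Of other mitosis genes 42 of 46 were measured, with a median log2 fold change of 0.02 for homozygous and -0.04 for hemizygous over wild type. KNL1, the kinetochore scaffold that recruits BUB1, had the largest fitted difference of that list for homozygous over wild type, -0.40, with 62.0 and 43.0 CPM in homozygous and 80.2 and 58.7 CPM in wild-type libraries 1 and 2. The APC/C subunits, 15 of 15 measured, had medians of 0.02 and 0.01, and condensin and cohesin, 17 of 17, had -0.07 and 0.00. The transcriptional regulators of mitotic genes, 15 of 15, had medians of -0.06 and -0.02, and the G1 to S genes, 23 of 24, had -0.08 and 0.00. Among the arrest genes, 9 of 13, the medians were -0.08 and 0.00. CDKN1A, the p21 inhibitor of cyclin-dependent kinases, had 32.8 and 46.2 CPM in homozygous, 75.7 and 45.0 CPM in hemizygous and 112 and 44.6 CPM in wild-type libraries. Its log2 fold change was -0.99 for homozygous over wild type (edgeR adjusted p = 1), and the gap lay in the replicate 1 libraries, since those of replicate 2 had 44.6 to 46.2 CPM.

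Between replicate numbers these lists held 27 calls by edgeR. Condensin and cohesin had 8 of 17 genes lower in replicate 2 and 0 higher, among them SMC1A, a cohesin ring subunit, with 133, 149 and 163 CPM in homozygous, hemizygous and wild-type libraries of replicate 2 against 208, 245 and 222 CPM in those of replicate 1 (log2 fold change -0.60, edgeR adjusted p = 0.012). SMC2, the condensin subunit, had a log2 fold change of -0.52. Of the other mitosis genes 3 rose, PTTG1 (securin), CKS2 and TROAP, and 3 fell, KNL1 at -0.59, ASPM and DEPDC1. Of the regulators FOXM1, LIN54 and TFDP1 fell, at -0.32, -0.35 and -0.38, and of the APC/C subunits ANAPC2 rose and ANAPC1 fell, at 0.33 and -0.63. Of the G1 to S genes 2 rose, led by CCND2 at 0.74, and 6 fell, led by RRM2 at -0.55, and no arrest gene was called. These counts are to be read beside the 8.50% of all genes called higher and the 12.0% called lower.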

How the data were processed

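RNA-seq libraries were made from total RNA of H1 cells with an unstranded Illumina TruSeq kit, per the labels' protocols. Reads were trimmed with cutadapt and aligned to hg38 with HISAT2, as the submitters' processing notes list without versions. The program used for counting, and its annotation, are not given in the sources. The deposited file holds raw counts per gene for 6 libraries, whole numbers with no normalization. It holds no gene that edgeR's filter on low counts would remove, so shares and percentiles of all genes are over expressed genes only. No molecular identifiers were used, so PCR copies are counted too and error exceeds counting error. Without strand, reads of opposite-strand neighbours are merged.

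Genotypes were taken from the sample titles. All 6 libraries entered 1 edgeR fit (version 4.0.16, R 4.3.3) for the 3 comparisons: TMM factors, filterByExpr (which removed 0 genes), the two-sided quasi-likelihood test and Benjamini-Hochberg adjustment over 16199 genes at 0.05, with 3 residual degrees of freedom. A second model with genotype and replicate number, with 2 residual degrees of freedom, gave the replicate comparison. The fits were tested on simulated data. DESeq2 1.42.0 and limma 3.58.1 (voom) were alternatives.

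Replicate numbers come from the titles. After each genotype's mean was removed, same-numbered libraries deviated together, with correlations of 0.523 between homozygous and hemizygous, 0.391 between homozygous and wild type and 0.784 between hemizygous and wild type, which meets the bar for a pairing, though with 2 numbers this rests on little. The genotype tests reported carry no replicate term unless a replicate block is named. The pairing entered only the replicate comparison and the alternatives with a replicate block. No 2 libraries were copies of each other.

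Positions, exon lengths and GC content came from GENCODE 29 (GRCh38), to which 15926 genes were matched, and promoter windows from RefSeq (GRCh38.p14). All listed genes could be named with their levels. Fold changes were given for CCNB1, CDK1, PLK1, AURKB, BUB1, MAD2L1, TOP2A, MKI67 and WEE1 and for the 2 largest in each direction per comparison. From the other lists, genes past the threshold or, where none passed, the largest difference could be named. Members and lists were chosen with earlier results of these data known. Python 3.11.15, pandas 2.3.3 and matplotlib 3.10.9 were used for annotation and figures.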

Additional observations from a re-analysis of the deposited data

How the results depend on the processing

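The lowest counts among the listed genes were those of SPC25 and PRC1, with 22 to 88 per library. The number of listed genes called between genotypes was 0 in every alternative run. These were RLE normalization, library totals only, no filter on low counts, DESeq2, limma-voom, the replicate block, DESeq2 with the block, and leaving out each library. The cause of the differences between settings below was not tested.

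The genes called over the whole table, 0 in edgeR, numbered 10 for homozygous over wild type, 7 for hemizygous over wild type and 10 for homozygous over hemizygous with DESeq2. With the replicate block they were 0, 1 and 1 in edgeR, and 121, 23 and 24 in DESeq2. The block changed no other call. Leaving out 1 library gave 0 to 1, 0 to 2 and 0 to 3 genes. Leaving out 1 library also gave median log2 fold changes of the listed genes of -0.0139 to 0.0485 for homozygous over wild type, -0.0388 to 0.0197 for hemizygous over wild type and -0.00772 to 0.0811 for homozygous over hemizygous. Without SPC25 and PRC1, an alternative chosen after seeing the data, these medians were 0.0364, -0.0388 and 0.0632.

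Small fitted log2 fold changes changed sign under other settings. TOP2A for homozygous over hemizygous was -0.00449 with RLE, -0.00447 with DESeq2, -0.000942 with limma-voom and -0.00647 with DESeq2 and the block. MAD2L1 for hemizygous over wild type was -0.00319 with library totals, and MKI67 was -0.0119 with the block and -0.00778 with DESeq2 and the block. When 1 library was left out, the ranges that crossed 0 for homozygous over wild type were AURKB -0.126 to 0.245, CDK1 -0.159 to 0.106, MAD2L1 -0.334 to 0.0654, MKI67 -0.337 to 0.167, PLK1 -0.107 to 0.189, SPC25 -0.553 to 0.0311, TOP2A -0.171 to 0.0436 and WEE1 -0.441 to 0.250. For hemizygous over wild type they were AURKB -0.376 to 0.0996, CCNB1 -0.0441 to 0.133, CDK1 -0.103 to 0.0439, MAD2L1 -0.169 to 0.231, MKI67 -0.251 to 0.256, PLK1 -0.214 to 0.0612 and WEE1 -0.243 to 0.507. For homozygous over hemizygous they were AURKB -0.0520 to 0.412, BUB1 -0.136 to 0.103, CDK1 -0.119 to 0.146, MKI67 -0.358 to 0.196, NUF2 -0.0426 to 0.529, PLK1 -0.0157 to 0.257, TOP2A -0.109 to 0.106 and WEE1 -0.549 to 0.106.

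For replicate 2 over replicate 1, leaving out the wild-type libraries gave 0 genes and 0 listed genes called, and PLK1 at -0.0494. Without the hemizygous libraries there were 2 genes and 0 listed genes, and without the homozygous libraries 6252 genes, with CDK1 at -0.0434.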
